A study of Solanum lycopersicum with 24 samples.

Results

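Ripening of wild-type tomato fruit was examined by comparing red ripe fruit with mature green fruit for peaks of N1-methyladenosine (m1A), an adenosine that carries a methyl group at its N1 position. The members are the 6 immunoprecipitated (IP) libraries of the cultivar Ailsa Craig (AC), of 24 libraries in the series. AC MG is wild-type fruit at the mature green stage, about 39 days after anthesis, and AC Br+6 is wild-type red fruit 6 days after the breaker stage, when colour first turns. Each stage has 3 libraries from biological replicates, and no treatment was given to either group. They were chosen by their labels for genotype, stage and IP. The series also holds 12 inputs, for which no peak list was used here, and 6 IP libraries of Never-ripe (Nr), an ethylene receptor mutant in the same background. The Nr libraries, called Nr G and Nr O in their titles, served only to look up genes that the wild-type comparison had already named. For every library there was a list of peaks in mRNAs, a list in long non-coding RNAs (lncRNAs) and a list in circular RNAs (circRNAs).

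Tomato is a climacteric fruit: a burst of ethylene, made from methionine through the enzymes ACC synthase and ACC oxidase, sets off softening, the change from chlorophyll to carotenoids, and the build-up of sugars and aroma compounds. The methyl group of m1A sits on the face of the base that pairs in a helix and gives the nucleoside a positive charge. The mark is well known in tRNA and rRNA and has also been mapped in messenger RNA, where an antibody pulls down short fragments that carry it. A peak is a stretch of a transcript where the authors' caller found more IP signal than its control. Below, a library is said to call a gene if its mRNA list held at least 1 peak there. A transcript can leave a list because it lost the mark, because it became rarer or because its signal fell below the caller's threshold, and peak lists cannot tell these apart. The fold enrichment given with each peak is the authors' value and has a ceiling of 50. Each value belongs to its own list. Values from different lists are set side by side below as description, and no test compares them between libraries.

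Peak lists of the same stage differed widely in length. The mRNA lists of AC MG replicates 1, 2 and 3 held 688, 220 and 308 peaks, and those of AC Br+6 replicates 1, 2 and 3 held 188, 236 and 854. AC MG replicate 1 and AC Br+6 replicate 3 stand apart from the other 4. Sequencing depth is unknown, since the lists hold no read totals. Calls were looked up in 4 fruit genes: the ripening-induced gene ASR1 was called in 6 of 6 libraries, the fruit-specific gene 2A11 in 5, the ethylene-responsive gene E8 in 4 and the polygalacturonase gene PG2A in 2. No gene described as a seed storage or embryo protein was called in any of the 6. A gene without a call can still be transcribed, and 752 of the 1500 called genes had a description. These calls therefore cannot settle the identity of the tissue. Peaks lay on all 12 chromosomes, and chromosome 1 held between 13.3% and 16.9% of the mRNA peaks of a library.

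The number of peaks per library did not separate the stages in any RNA class. On the log2 scale, AC Br+6 minus AC MG was -0.10 ± 0.84 (SE, n = 3 per stage) for mRNA peaks, 0.44 ± 0.74 for lncRNA peaks and 0.13 ± 0.20 for circRNA peaks. Two-sided exact permutation tests over libraries gave p = 0.9, 0.7 and 0.7. The lncRNA lists held 6, 2 and 3 peaks in AC MG and 3, 3 and 10 in AC Br+6. The circRNA lists held 42, 33 and 37 peaks in AC MG and 36, 36 and 52 in AC Br+6. In all 3 classes the stages overlapped, AC MG replicate 1 had the longest list of its stage and AC Br+6 replicate 3 had the longest of all 6. Without AC MG replicate 1 the mRNA difference became 0.37, without AC Br+6 replicate 3 it became -0.77, and without both it was -0.31.

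**Figure D1:**
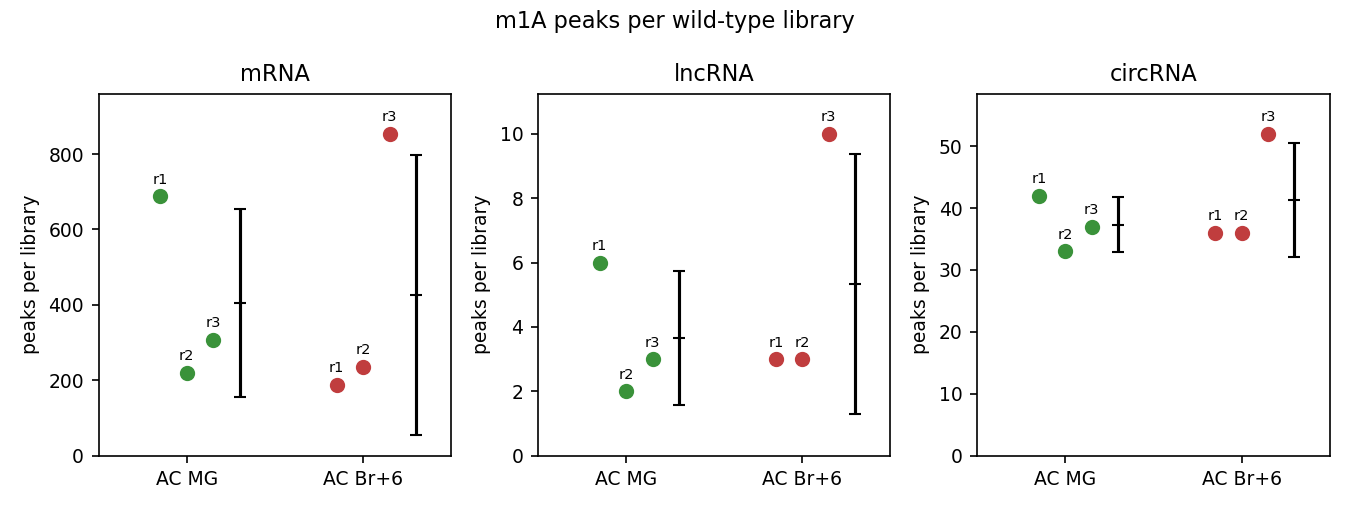
Number of peaks per library (y axis, starting at 0) for mRNA, lncRNA and circRNA at AC MG (green) and AC Br+6 (red). Each point is 1 library labelled by its replicate number (r), and the black bar is the mean ± SD of 3 libraries; replicate 1 of AC MG (688 mRNA peaks) and replicate 3 of AC Br+6 (854) lie above the other libraries in every class.

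The number of genes called, the number of peaks per called gene and the length of peaks did not differ beyond the replicate spread either. AC MG replicates called 609, 204 and 289 mRNA genes and AC Br+6 replicates 173, 211 and 735, a log2 difference of -0.14 ± 0.80 (SE, n = 3, exact permutation p = 0.9). A called gene held 1.09 ± 0.034 peaks (SD, n = 3) in AC MG and 1.12 ± 0.038 in AC Br+6 (exact permutation p = 0.4, n = 3). The median mRNA peak measured 203.5 ± 11.2 bases (SD, n = 3) in AC MG and 195 ± 21.9 in AC Br+6 (exact permutation p = 0.7, n = 3), close to the 200-base fragments that entered the IP. Deposited lengths depend on the RNA to which a peak was assigned, as the circRNA lists show below. A link to fragment length was not tested. All 8 exact permutation tests of the comparison had an adjusted p of 1, and 0 had an unadjusted p under 0.05. With 3 against 3 libraries the smallest p is 0.1, so none of them could have passed, and the tests do not show that the stages were alike.

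The extra peaks of the 2 long lists lay mostly in mRNAs. Peaks carry running numbers in the caller's names, which follow genome position within a library with at most 5 breaks in the mRNA list. The highest number in any of a library's 3 lists was 1476, 965 and 1114 in AC MG and 933, 1005 and 1651 in AC Br+6. Numbers that appear in none of the 3 lists came to 765, 725 and 785 in AC MG and 722, 748 and 768 in AC Br+6, a narrow range. The mRNA list accounted for 46.6% of the highest number in AC MG replicate 1 and 51.7% in AC Br+6 replicate 3, against 20.2% to 27.6% in the other 4 libraries. What the unlisted numbers are is not given in the sources used here.

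A different pair of libraries shared an excess of long peaks. Peaks longer than 500 bases made up 6.49% of the mRNA list of AC MG replicate 3 (20 peaks) and 6.67% of that of AC Br+6 replicate 3 (57 peaks), against 0.847% to 1.36% in the other 4 libraries. Of the 20 long peaks of AC MG replicate 3, 13 overlapped a long peak of AC Br+6 replicate 3. The longest in both was in Solyc01g095320, a gene with no description in the lists, at 1854 and 1851 bases on chromosome 1. The polyubiquitin gene Solyc07g064130 had a peak of 1374 bases, with the same start and end, in both libraries, and Solyc07g064190 had a peak of 1011 bases in both. These libraries belong to different stages and have the same replicate number. The same 2 lists had the lowest share of mRNA peaks at the ceiling of 50, 3.25% and 3.63%, against 9.01% to 16.8% elsewhere.

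Most genes were called in 1 library, and a small core was called in all 6. The 6 libraries together called 1500 mRNA genes, 863 at AC MG and 906 at AC Br+6. Both stages shared 269 genes (17.9%), 594 were called at AC MG only and 637 at AC Br+6 only. Of the 1500, 1183 (78.9%) were called in 1 library, 168 in 2, 45 in 3, 22 in 4, 13 in 5 and 69 in all 6. Among the 168 genes called in 2 libraries, 46 had both calls at the same stage and 122 had 1 call at each. More pairs of libraries lie between the stages than within them. The numbers 46 and 122 therefore do not show that stages shared more than replicates did. Library size moved with these counts. AC MG replicate 1 and AC Br+6 replicate 3, from opposite stages, shared 181 genes, more than any 2 libraries of the same stage (88 to 123). In these libraries 60.9% and 66.5% of the called genes were called nowhere else among the 6, against 32.4% to 44.6% in the other 4.

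**Figure D2:**
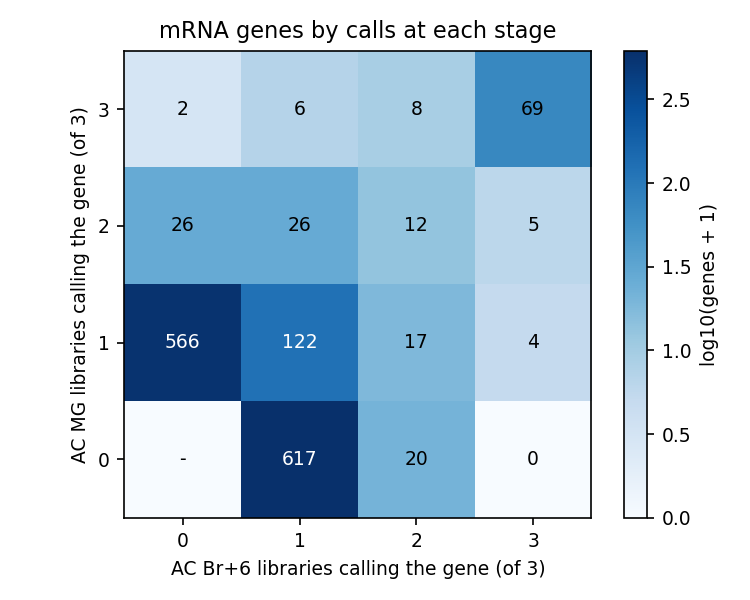
Number of mRNA genes (in each cell; colour is log10 of the number plus 1) by how many of 3 AC MG libraries (y axis) and 3 AC Br+6 libraries (x axis) called them. The 1183 genes called once fill the cells with 566 and 617 genes, 69 genes sit in the corner with 3 of 3 at both stages, and the corners with 3 of 3 at a single stage hold 2 and 0 genes.

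Genes of the core had the highest fold enrichments in every library. For these values the highest peak of each gene in a library was taken. The median fold enrichment of genes called in all 6 libraries lay between 29.9 and 37.7, library by library. For genes called in 1 library it lay between 9.27 and 16.8. These ranges do not overlap; the strength of a peak and the chance of its being called again are not independent measures, so no test was made. Peak length, taken as the longest peak of each gene in a library, did not follow recurrence in the same way. Library medians were 174 to 194 bases in the core and 190 to 230 bases in genes called once. Of the 69 core genes, 34 had a peak with identical start and end in all 6 libraries. Only 16 of the 69 (23.2%) had a description, against 52.0% of the genes called once.

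**Figure D3:**
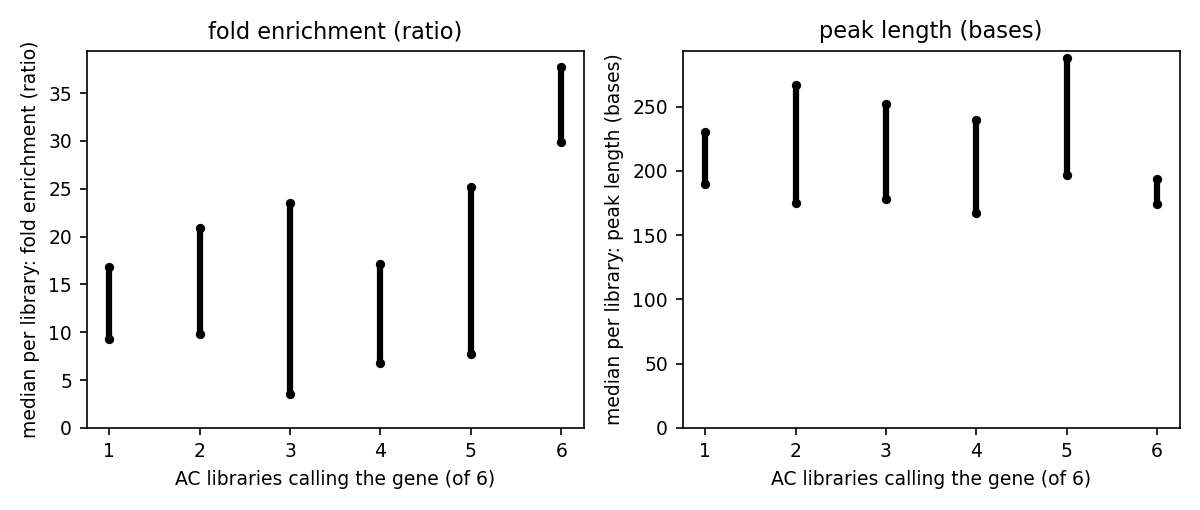
Highest fold enrichment (left, ratio) and longest peak (right, bases) of each mRNA gene in a library, against the number of AC libraries that called the gene (x axis). Each bar runs from the lowest to the highest of the per-library medians. The bar for genes called in 6 libraries (29.9 to 37.7) lies above all other fold-enrichment bars, which end at 25.2 or lower. The length bars overlap, except those for 6 libraries (174 to 194) and 5 libraries (197 to 287.5).

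The described genes at the top of the core encode proteins of several compartments. UDP-arabinopyranose mutase 1-like (Solyc02g065740), an enzyme that supplies arabinose units to the cell wall, had a fold enrichment of 50 in all 6 libraries over chromosome 2, 37458387 to 37458772. A receptor-like protein 51 gene (Solyc02g072250) had 50 in 5 libraries and 49.7 in AC Br+6 replicate 3. Solyc04g081500, which encodes a BRISC and BRCA1-A complex subunit (part of a deubiquitinating complex in animals), and the gene for cytochrome b-c1 complex subunit 8 (Solyc06g007540), a part of the mitochondrial respiratory chain, had values from 49.9 to 50. Thioredoxin-like 4 (Solyc04g078910) had values from 48.8 to 49.9, and a CRM domain gene (Solyc12g014280) from 35.6 to 48.1. A chloroplastic transcription termination factor gene, MTEF1 (Solyc01g007750, chromosome 1, 1846998 to 1847383 over all libraries), had 31.8, 35.7 and 33.8 in AC MG and 37.1, 50 and 27.2 in AC Br+6, and the stages overlapped. The gene for a twinkle homolog (Solyc02g022830), whose protein is assigned to chloroplasts and mitochondria, had 49.9 to 50 in all 6, with peaks that all ended at 24618062 on chromosome 2.

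Other core genes had uneven values across the lists, each value being the authors' within its own list. A peroxidase gene (Solyc02g090450, chromosome 2, 52636596 to 52636981) had fold enrichments of 50, 50 and 4.31 in AC MG replicates 1 to 3 and 50, 50 and 26.0 in AC Br+6 replicates 1 to 3. The 14 kDa proline-rich protein gene DC2.15 (Solyc08g074480, chromosome 8, 58702881 to 58703276) had 50, 50 and 49.1 in AC MG but 4.76, 5.56 and 49.7 in AC Br+6. The low values thus fell in replicate 3 of AC MG for the peroxidase gene and in replicates 1 and 2 of AC Br+6 for DC2.15. A weak peak can also be constant: a 65-base interval of the calcium channel gene Solyc07g053970 was called at the same position in all 6 libraries with fold enrichments of 2.29 to 8.47. ASR1, which encodes a small protein induced by ripening and drought, carried 11 peaks. Its peak at 58664498 to 58664650 on chromosome 4 had values of 21.4 to 22.8 in 5 libraries and was absent in AC MG replicate 3, and a second interval starting at 58665339 was called in all 6 with values of 23.7 to 28.2. Solyc11g027665, a gene with no description, had the same 2 intervals in all 6 libraries, 18770742 to 18771208 and 18773332 to 18773421 on chromosome 11. The first had 8.61, 24.4 and 28.8 in AC MG and 32.8, 30.3 and 27.5 in AC Br+6. Its neighbour Solyc11g027693, also without a description, had 10 peaks in 5 libraries and none in AC MG replicate 2.

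Genes gained in red fruit, with calls from 2 or more of the 3 AC Br+6 libraries and from no AC MG library, numbered 20 (1.33% of 1500), and 8 had a description. Genes lost, by the reverse rule, numbered 28 (1.87%), and 13 had a description. The calls of this comparison chose these genes, so their values are descriptions without a test. Of the 20 gained genes, 19 were called in AC Br+6 replicate 3, 12 in replicate 2 and 9 in replicate 1. Of the 28 lost genes, 26 were called in AC MG replicate 1, 19 in replicate 3 and 13 in replicate 2. Without AC Br+6 replicate 3 the counts became 1 gained and 52 lost, and without AC MG replicate 1 they became 31 and 4. Without both long lists there were 6 gained and 11 lost genes, of which 1 and 4 were among the 20 and 28.

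A shared gene name did not always mean a shared peak. Of the 20 gained genes, 11 had peaks that overlapped between the libraries calling them, and of the 28 lost genes 15 did. The bZIP transcription factor 60 gene (Solyc04g082890), whose Arabidopsis counterpart acts in the unfolded protein response, had overlapping but weak peaks of 2.38 and 2.40 in AC Br+6 replicates 2 and 3 (chromosome 4, 66479363 to 66479695). The auxin response factor gene ARF3 (Solyc02g077560) was similar, with 2.91 and 2.52 in the same libraries (chromosome 2, 43033041 to 43033374). The homeodomain gene BL2 (Solyc06g074120) had 4.51 and 9.37 in AC Br+6 replicates 1 and 3, ending at the same base. A phosphoserine phosphatase gene (Solyc06g076510), the last step of a serine pathway in plastids, had 2.76 and 22.3 in these libraries.

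Stronger gained peaks lay in ELIP (Solyc09g082690), an early light-inducible protein of the thylakoid, with 49.1 and 17.8 in AC Br+6 replicates 2 and 3. Both ELIP peaks ended at 68835521 on chromosome 9. The uncharacterised gene Solyc09g008970 had 50 and 24.1 in the same libraries, starting at the same base. The cytochrome P450 94A1-like gene (Solyc09g066150) had 25.4 and 44.7, but its peaks did not overlap: replicate 2 had 64810064 to 64810330 and replicate 3 had 64809477 to 64809741 on chromosome 9. In the heat shock cognate 70 kDa gene (Solyc11g066100) the peak of AC Br+6 replicate 1 (295 bases, 9.02) lay inside a 1603-base peak of replicate 3 (15.7). No gained gene was called in all 3 AC Br+6 libraries.

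Among the lost genes, 2 were called in 3 of 3 AC MG libraries, neither with a description. Solyc10g051390 had the same interval in all 3 (chromosome 10, 51998403 to 51998555), with fold enrichments of 30.4, 49.8 and 2.95. Solyc11g011390 had a peak of 4.03 at 4459914 to 4460073 on chromosome 11 in AC MG replicate 1 and a peak of 46.0 at 4472260 to 4472506 in replicate 2. Replicate 3 had 2 peaks in this gene, and 1 of them had the interval of replicate 1. Only the former gene therefore lost a shared interval from 3 of 3 libraries.

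Described lost genes with strong peaks at shared positions included AAT2 (Solyc03g025320), which encodes an alcohol acyl transferase of the family that makes ester volatiles, with 50 in AC MG replicates 1 and 2 (chromosome 3, 2786895 to 2787288). Thiamine thiazole synthase (Solyc07g064160), an enzyme of thiamine synthesis, had 39.6 and 49.9 in the same libraries. A cysteine proteinase inhibitor gene (Solyc09g097850) had the same 169-base interval in AC MG replicates 1 and 3, with 37.5 and 36.8. A YTH domain gene (Solyc01g103540), of the protein family that binds methylated adenosine in RNA, had weak overlapping peaks of 3.75 and 2.58 in AC MG replicates 1 and 3 (chromosome 1, 92006098 to 92006299). A fasciclin-like arabinogalactan protein gene (Solyc07g045440) had 1.88 in replicate 2 and 40.7 in replicate 3 over the same end. The ABC transporter gene ABCC1 (Solyc01g080640) had 7.91 and 4.92 in replicates 1 and 3.

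In other lost genes the peaks lay apart. Solyc06g007570 and Solyc02g070310, which encode the ribosomal proteins S8 and L32-1, had peaks of 30.7 and 26.2 and of 15.1 and 3.94 that did not overlap between libraries. The same held for FKBP12 (Solyc01g105710), a peptidylprolyl isomerase, with 23.7 and 14.4, and for the E2 conjugating enzyme gene UBC9 (Solyc08g008220), with 4.86 and 1.60. It held too for a BOI-related E3 ubiquitin ligase gene (Solyc08g077460), with 50 and 5.66, and a casein kinase 1-like gene (Solyc09g066440), with 22.9 and 23.6. A probable quinone oxidoreductase gene (Solyc01g108150) had 2 peaks in replicate 1 and 3 in replicate 3, and 2 intervals were shared.

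These genes were then looked up in the Never-ripe libraries, which the rule did not use. At least 1 Nr G library called 5 of the 20 gained genes (25.0%) and 6 of the 28 lost genes (21.4%), and at least 1 Nr O library called 0 and 2 (7.14%). Over all 1500 genes the shares were 18.2% for Nr G and 9.20% for Nr O, and over the 168 genes called in 2 wild-type libraries they were 25.0% and 7.14%. Nothing particular to the gained or lost genes is read from these shares. The Nr O mRNA lists were short, with 108, 151 and 129 peaks, against 377, 233 and 360 in Nr G. Thiamine thiazole synthase had peaks in all 3 Nr G libraries and in 1 from Nr O, and bZIP60 in 2 from Nr G. ELIP was called in 1 Nr G library and AAT2 in 1 Nr O library.

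**Figure D4:**
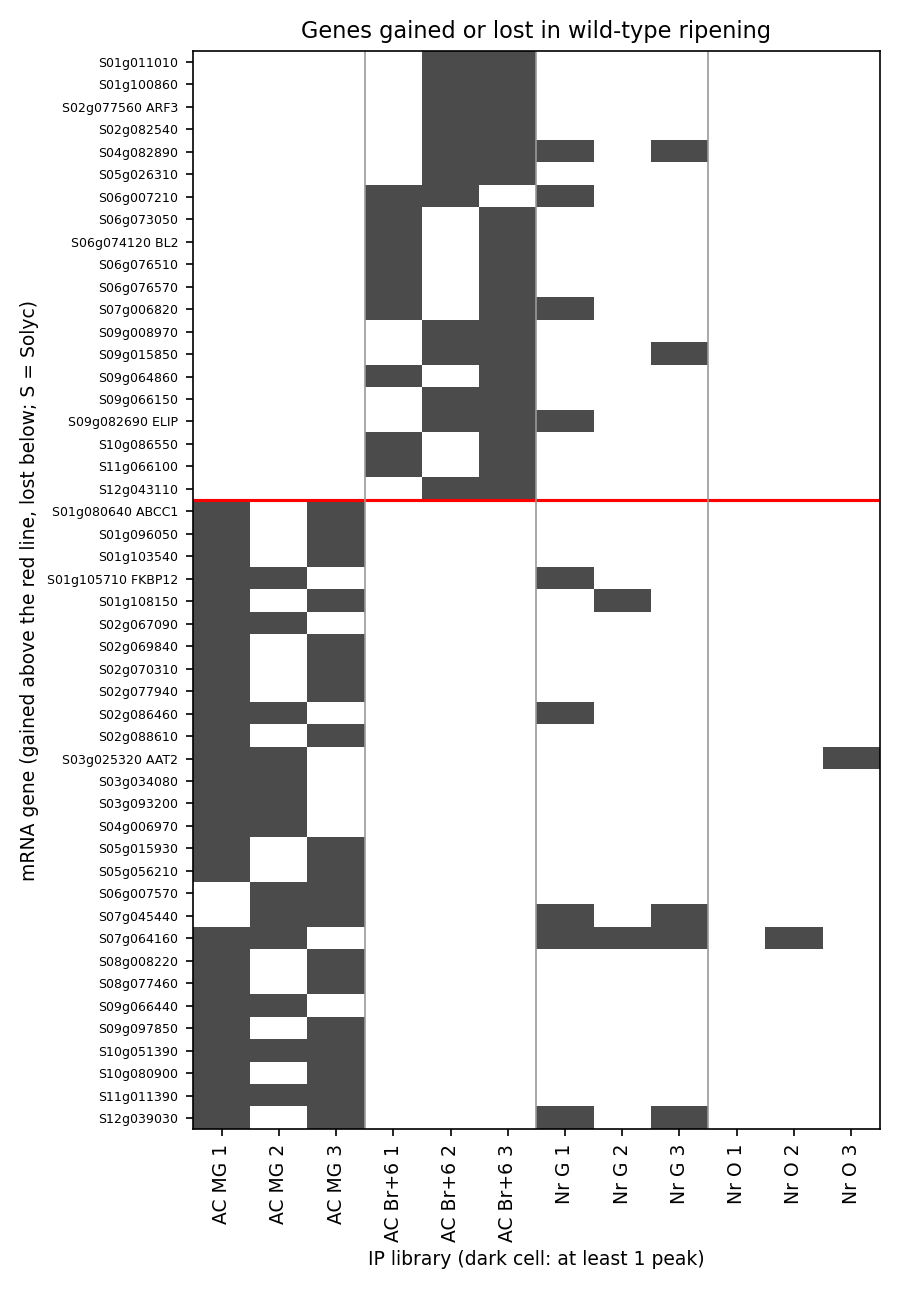
Calls of the 20 gained (above the red line) and 28 lost (below) mRNA genes in the 12 IP libraries; a dark cell means at least 1 peak, and the locus prefix Solyc is shortened to S. The column of AC Br+6 replicate 3 is dark for 19 gained genes and that of AC MG replicate 1 for 26 lost genes; white wild-type blocks follow from the rule, and the Nr columns are mostly white.

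Of 14 ripening genes looked up by name, 6 were called at both stages, 6 in no library, and ELIP and AAT2 at 1 stage each. No peak lay in the ethylene receptor gene NR, the ACC synthase genes ACS2 and ACS4, or the transcription factor genes RIN, NOR and TAGL1 in any of the 6 libraries. E8, an ethylene-responsive gene, had a peak starting at 69774781 on chromosome 9 in AC MG replicates 1 and 3 and AC Br+6 replicate 3, with fold enrichments of 10.02, 10.1 and 17.9, and a weak peak of 2.12 within it in AC Br+6 replicate 2. A second E8 peak, of 33.4, was in AC MG replicate 1 alone. ACO1, the ACC oxidase gene of ripening fruit, had overlapping peaks of 12.2 and 22.4 in AC MG replicates 1 and 2, both starting at 59959392 on chromosome 7, and a peak of 15.4 in AC Br+6 replicate 2 that ended at 59958862. The ripening regulator CNR had 1 peak in each of AC MG replicates 1 and 2 and AC Br+6 replicate 3, of 23.5, 4.8 and 24.5, at positions that did not overlap.

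Of the genes for colour, softening and sugar, VI had the most calls. VI (Solyc03g083910) encodes the vacuolar invertase that splits sucrose. It had a first interval starting at 55280603 on chromosome 3 in AC MG replicates 1 and 3 (22.1 and 5.04) and in all 3 AC Br+6 replicates (3.26, 17.7 and 10.4). A second interval, around 55283016 to 55283499, was called in AC MG replicates 1 and 3 (25.2 and 7.14) and in AC Br+6 replicates 1 and 3 (33.8 and 23.1). PSY1, the first enzyme of carotenoid synthesis, had an identical 656-base interval in AC MG replicate 3 (20.3) and AC Br+6 replicate 3 (14.1), and AC Br+6 replicate 3 had another peak of 11.7. PG2A, the polygalacturonase of ripe fruit, had a 50-base peak of 10.3 in AC MG replicate 1 and 3 peaks of 6.74 to 10.1 in AC Br+6 replicate 3, none overlapping the first. The pectate lyase gene PL (Solyc03g111690), named after its values were seen, had peaks of 26.7 and 7.64 in AC MG replicate 1 and a peak of 43.4 in AC Br+6 replicate 3.

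Genes called at both stages often kept their peak position. Of the 269 shared genes, 204 (75.8%) had overlapping peaks and 121 (45.0%) an identical interval at both stages. In the other 65 (24.2%) no AC MG peak overlapped an AC Br+6 peak, and the gap between the nearest peaks ran from 42 to 32411 bases, with a median of 1217. ACO1, CNR and PG2A belong to these 65. Counted over distinct peaks, 283 of 1068 AC MG peaks (26.5%) were overlapped by an AC Br+6 peak, and 133 had the same start and end. By library, 25.9% of the peaks of AC MG replicate 1 were matched at the other stage, against 53.6% and 41.6% for replicates 2 and 3. For AC Br+6 the shares were 58.0%, 51.7% and 21.1%, lowest again in the long list.

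Gene lists were built from words in the deposited descriptions and from known loci, and each is described by its calls beside those of all 1500 genes. Of all called genes, 57.5% were called at AC MG and 60.4% at AC Br+6. Without the longest list of each stage, 398 genes were called at AC MG and 296 at AC Br+6. The counts without the longest lists below stand beside these, so a higher AC MG count is not by itself a trait of a list. The median number of libraries per gene was 1 over all genes and in the lists for translation, chaperones, redox enzymes and protein turnover. The share of a library's called genes taken by a list did not overlap between the stages for 2 of 15 lists (13.3%), those for translation and for redox enzymes. The lists were made with earlier results in view, so no test was applied, and nothing particular to either list is read from this.

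Ribosomal proteins and translation factors made up 3.28%, 3.43% and 2.77% of called genes in AC MG replicates 1 to 3 and 1.73%, 1.42% and 2.31% in AC Br+6. The nearest values of the stages were 2.77% and 2.31%. Of 46 translation genes, 31 were called at AC MG and 23 at AC Br+6, 8 of them at both, and 2 were lost and 0 gained. Without the longest list of each stage the counts were 14 and 6. Called at both stages were the eIF3 subunit B gene (Solyc01g088370), with 17.9 and 50 in AC MG replicates 1 and 2 and 12.7 in AC Br+6 replicate 3 at the same start, and the ribosomal protein gene L27a-3-like (Solyc06g071720). The latter had 7.78 and 2.71 in AC MG replicates 1 and 3 and 50 in AC Br+6 replicate 3. The median fold enrichment of the list's peaks was 8.98, against 13.4 over all mRNA peaks.

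Redox enzymes and cytochromes P450 made up 0.821%, 0.980% and 1.04% of called genes in AC MG and 1.16%, 1.896% and 1.09% in AC Br+6. The nearest values of the stages, 1.04% and 1.09%, lay close together. The list is small, with 12 called genes, 6 at AC MG and 9 at AC Br+6, and 2 of them, the peroxidase and thioredoxin-like genes of the core, were called in all 6 libraries. Without the longest list of each stage 3 and 4 genes were called.

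Heat shock proteins and chaperones, which help other proteins fold, numbered 16 in AC Br+6 replicate 3 and 3 to 5 in each of the other 5 libraries. Of 27 such genes, 10 were called at AC MG and 22 at AC Br+6 (81.5%, against 60.4% of all genes). As shares of called genes they were 0.657%, 1.96% and 1.73%, and 1.73%, 1.896% and 2.18%, and the stages overlapped. Without the longest list of each stage 8 genes were called at AC MG and 7 at AC Br+6. The 6 genes described as small, class III or class IV heat shock proteins, named after their values were seen, were called in 1 AC Br+6 library each and in no AC MG library. This pattern was common: 617 of all 1500 called genes had it, so nothing particular to these 6 is read from it. HSP21 (12.2), HSP17.4 (8.80), er-sHSP (49.9) and a class IV gene (Solyc01g102960, 49.7) were called in replicate 3 alone. A class II gene (Solyc08g062450, 11.03) and a class III gene (Solyc03g123540, 4.01) were called in replicate 1 alone. HSC80 (Solyc07g065840) had peaks in all 3 AC MG libraries (3.81 to 42.2) and in AC Br+6 replicate 2 (7.68). ClpB1 (Solyc03g115230), a disaggregating chaperone, had 43.1 and 8.24 in AC MG replicates 1 and 3 and 2 peaks of 14.0 in AC Br+6 replicate 3.

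**Figure D5:**
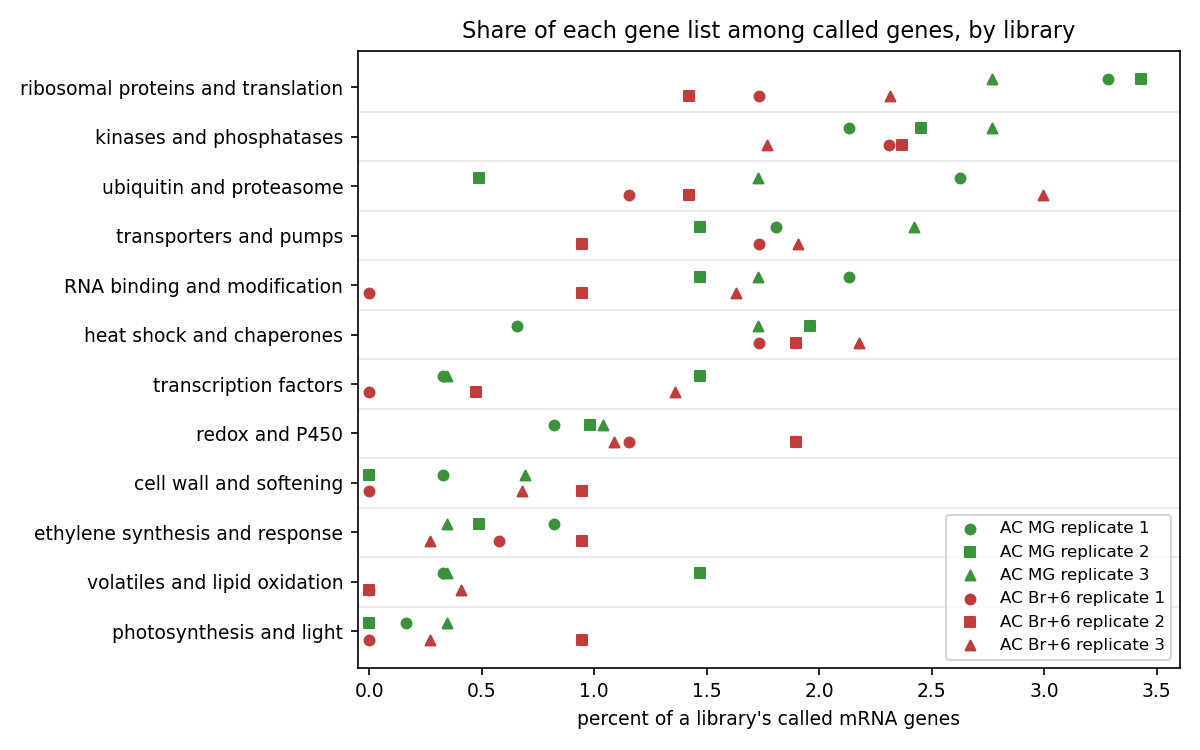
Share of the called mRNA genes of each library (x axis, percent) that belongs to each gene list, for lists with at least 5 called genes; green marks are AC MG and red marks AC Br+6 libraries, with the replicate shown by the marker. The green marks of the translation list (2.77% to 3.43%) lie right of its red marks (1.42% to 2.31%), the marks of the redox list come as near as 1.04% and 1.09%, and the stages overlap in the other lists shown.

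In the other lists the shares of the stages overlapped. Genes for ubiquitin and the proteasome, which degrade proteins, numbered 35, with 17 called at AC MG and 25 at AC Br+6, and 5 and 4 without the longest lists. A proteasome maturation factor UMP1-like gene (Solyc02g089820) had the same 194-base interval in AC MG replicates 1 and 3 (41.9 and 18.5) and AC Br+6 replicate 3 (19.1). Genes for RNA-binding proteins, helicases and splicing factors numbered 27, and none was described as an RNA methyltransferase or demethylase. Of these, 17 were called at AC MG and 14 at AC Br+6, and 7 and 2 without the longest lists. Among them, RNA-binding protein 39 (Solyc11g005170) was called in 3 AC MG libraries (10, 50 and 17.6) and in AC Br+6 replicate 3 (4.34), and the helicase DB10 (Solyc12g035130) had values from 5.17 to 44.7 in 3 libraries. Kinases and phosphatases numbered 38, with 24 at AC MG and 18 at AC Br+6, and 12 and 7 without the longest lists. The protein phosphatase 2C 55 gene (Solyc12g089090) had 2.30 and 3.94 in AC MG replicates 2 and 3 and 6.02, 3.97 and 4.46 in AC Br+6, all starting at 65195283 on chromosome 12. A serine/threonine-protein phosphatase gene (Solyc01g073650) had weak peaks at 1 place in AC MG replicate 2 (2.30) and AC Br+6 replicates 1 and 2 (2.26 and 2.12). The word list for transporters and pumps held 29 genes, with 17 at each stage, and 9 and 4 without the longest lists. It took in genes of other kinds, such as those for a katanin subunit, proteasome subunits and an acyl carrier protein. A molybdate-anion transporter gene (Solyc03g082660) had overlapping peaks of 50 and 12.7 in AC MG replicates 1 and 3, and a peak of 4.57 elsewhere in the gene in AC Br+6 replicate 3. Of 14 transcription factor genes, 6 were called at AC MG and 10 at AC Br+6, all 10 in replicate 3 and 1 of them also in replicate 2. Without the longest lists 4 and 1 were called.

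The smaller lists of ripening pathways had few calls. Of 7 ethylene genes, 5 were called at AC MG and 4 at AC Br+6, and of 8 cell wall genes 4 and 7. Without the longest lists these counts were 2 and 3 for ethylene and 2 and 2 for the cell wall. Of 6 genes for volatiles and lipid oxidation, 5 and 3 were called, of 5 genes for photosynthesis and light 2 and 3, and of 4 sugar and starch genes 2 and 3. Without the longest lists they were 4 and 0, 1 and 2, and 1 and 2. The list for volatiles took in stray genes, such as an S-acyltransferase gene and a polyvinylalcohol dehydrogenase-like gene. The 5 ethylene genes called in 1 library were named after their values were seen. In AC MG replicate 1 these were the receptor gene ETR4 (12.8), the ACC oxidase gene ACO6 (28.8) and an ACC oxidase homolog gene (Solyc04g007980, 7.64). At AC Br+6 they were EBF1, which encodes an F-box protein that turns over EIN3 in Arabidopsis (42.1, AC Br+6 replicate 1), and ERF84 (6.97, AC Br+6 replicate 3). The DNA demethylase gene DML2 was called in AC Br+6 replicate 2 (5.83) and the ripening gene AP2a in AC MG replicate 1 (17.2 and 11.4).

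Peaks in lncRNAs were few: 27 in 12 transcripts, 7 of them called at AC MG, 11 at AC Br+6 and 6 at both. Solyc06g011490 was called in all 6 libraries, always over the last 368 or 398 bases of its transcript, with fold enrichments of 5.69, 8.98 and 5.66 in AC MG and 6.77, 6.09 and 10.1 in AC Br+6. Solyc02g032360 was called in 3 AC MG libraries (14.7, 6.68 and 35.7) and in AC Br+6 replicate 3 (10.3), with all 4 peaks starting at 28839807 on chromosome 2. A gained transcript, Solyc01g111080, was the only 1 of 12 (8.33%), and 0 were lost. It had 18.6 and 19.6 in AC Br+6 replicate 1 and 49.5 and 49.6 in replicate 3, and the peaks starting at 97361965 and 97361868 overlapped. Solyc03g116170 and Solyc04g082200 were called in AC MG replicate 1 and AC Br+6 replicate 3, at places that did not overlap. The same libraries called ENSRNA050030006-T1 over its whole 119 bases (7.08 and 48.2) and Solyc01g056940 at overlapping places (6.11 and 10.6). Of the 27 peaks, 9 reached the 3′ end of the annotated transcript and 7 the 5′ end.

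Peaks in circRNAs were spread over 35 circles, and a few circles held most of them. Of the 35, 28 were called at AC MG, 27 at AC Br+6 and 20 at both. The 10 circles called in all 6 libraries held 173 of 236 peaks (73.3%). The circle at chromosome 11, 18750703 to 18845571, hosted by Solyc11g027645, alone held 11, 10 and 14 peaks in AC MG and 15, 12 and 14 in AC Br+6. A circle with a small-subunit rRNA as host (chromosome 6, 11587647 to 11608356) held 3, 5 and 4 peaks in AC MG and 5, 5 and 3 in AC Br+6. A circle antisense to a large-subunit rRNA, on an unplaced scaffold, held 3, 2 and 2 and then 2 in each AC Br+6 library. Circles with an rRNA as host together held 11, 12 and 10 peaks in AC MG and 11, 12 and 10 in AC Br+6. Peaks of these circles hardly varied in number between stages or with the length of the mRNA list. The median circRNA peak measured 634.5 ± 148 bases (SD, n = 3) in AC MG and 648 ± 12.6 in AC Br+6 (two-sided exact permutation p = 1, n = 3).

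Many circRNA peaks were the mRNA peaks under another interval. Of 236 circRNA peaks, 120 (50.8%) had the same peak name as an overlapping mRNA peak of the same library, and all 120 had its fold enrichment. The interval was identical in 11 of these and differed in 109, with a median length of 465 bases in the circRNA list and 217 in the mRNA list. Lengths as deposited thus depend on the RNA to which a peak was assigned. The shared part was 57.1%, 45.5% and 48.6% in AC MG and 38.9%, 47.2% and 61.5% in AC Br+6, a difference of -1.20 percentage points ± 7.48 (SE, n = 3, two-sided exact permutation p = 0.9). Counting identical start and end only, the planned measure, it was 3.39% ± 3.59 (SD, n = 3) and 5.34% ± 2.46 (exact permutation p = 0.5).

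Circles gained in red fruit numbered 4 of 35 (11.4%), and 1 was lost (2.86%). The gained circle at chromosome 6, 1282119 to 1285143 (host Solyc06g007210), had the same 74-base peak in AC Br+6 replicates 1 and 2, with 20.6 and 20.1, and these are the peaks by which its host counted as a gained mRNA. This was the gained gene not called in AC Br+6 replicate 3. The gained circle at chromosome 12, 59699167 to 59714598, shared its 3 peaks with its gained host Solyc12g043110. The circle at chromosome 1, 97348461 to 97364904 (host Solyc01g111020), took 3 of its 4 peaks from the stretch also listed under the gained lncRNA Solyc01g111080, with the same starts and fold enrichments. The circle at chromosome 8, 55586368 to 55590040 (host Solyc08g066700), had peaks of 50 in AC Br+6 replicate 2 and of 22.1 and 2.97 in replicate 3. The lost circle, at chromosome 7, 66551392 to 66551601, lies antisense to thiamine thiazole synthase and carried that gene's peaks, 39.6 and 49.9. In 4 of these 5 circles every peak was also listed in another RNA class, and in the circle on chromosome 8, 2 of 3 peaks were.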

How the data were processed

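RNA was cut to fragments of about 200 bases, immunoprecipitated with an m1A antibody and treated with alkali, which turns m1A into m6A, per the labels' protocols. Per the submitters' processing notes, the tools used include HISAT2 2.0.4 and cutadapt 1.9.3. The sources used here do not give the settings or control of the peak caller, whose peak names start with MACS. Each of the 36 lists was given to the IP library whose genotype, stage and replicate its name carries. The deposited fold enrichment is a ratio from the authors' caller with a ceiling of 50. The deposited score of a peak is, per the file headers, -10 times log10 of the p-value. The deposited FDR reads 100 percent for every peak, per the file headers, and was not used as a filter.

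Coordinates are on SL3.00, as a scaffold name in the circRNA lists shows, with 1 added to the deposited starts; gene coordinates are spans of peaks, and exons or UTRs were not used here. A gene is the Solyc locus without its version. Symbols and descriptions are those in the lists: of 1500 called genes 752 had a description, 747 had a gene number, and 735 of the 744 numbers found in the RefSeq table (assembly SLM_r2.1) had the same symbol there. E8, VI, CNR, PL and other names without a description belong to loci written into the lists of genes and were not checked against a reference.

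Peak and gene numbers were compared as mean log2 numbers, and lengths and shares as means over libraries, with two-sided exact permutation tests (20 arrangements) adjusted over 8 tests by the Benjamini-Hochberg method. Gained and lost genes were counted by rule, without a test. The p-values cover the spread between these libraries. Peak overlap meant at least 1 shared base; scripts were checked on simulated lists. Python 3.11.15, pandas 2.3.3, numpy 2.4.6 and scipy 1.17.1 were used. The members, gene lists and tests were chosen with earlier results of these data known. Word lists take in stray genes and can share genes. Genes named were the described gained or lost ones, those called in 3 of 3 against 0 of 3, the 10 described core genes of highest fold enrichment, 14 ripening genes, list members called in at least 3 libraries, recurrent lncRNAs and circles, and genes with the most or longest peaks. Alternatives left out each library, kept strong peaks, equalised list length or changed the overlap rule. The check of circRNA against mRNA peaks by name, the removal of both long lists, and the descriptions of peak numbering and of long peaks were added after seeing the data.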

Additional observations from a re-analysis of the deposited data

How the results depend on the processing

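Of 101 alternative values, 66 kept the direction of the value reported or, for counts of genes and shares of overlapping peaks, stayed near it. The values with the replicate block are among the 66 and equal the reported ones by construction. No test passed under any of them that was run, since 3 against 3 libraries, or fewer, cannot pass. With each library left out in turn, AC Br+6 minus AC MG on the log2 scale ran from -0.77 to 0.37 for mRNA peaks and from -0.79 to 0.30 for mRNA genes, turning positive without AC MG replicate 1 (0.37 and 0.30), AC Br+6 replicate 1 (0.32 and 0.26) or AC Br+6 replicate 2 (0.15 and 0.11). It ran from -0.14 to 0.87 for lncRNA peaks and from -0.045 to 0.22 for circRNA peaks, with both negative values without AC Br+6 replicate 3. The median length differed by -18 to 3.5 bases for mRNA peaks (positive without AC Br+6 replicate 2) and by -45.1 to 96.9 for circRNA peaks (-10.8 without AC MG replicate 1, -45.1 without AC MG replicate 2). With strong peaks alone (fold enrichment not below the median of the class), the circRNA peak number differed by -0.25 on the log2 scale, the circRNA median length by -63 bases and the share of circRNA peaks identical to mRNA peaks by -3.04 percentage points; the lncRNA lists gave no value there, as a library had no such peak. The mean circRNA length differed by -48.5 bases, and matching by peak name gave -1.20 percentage points. The causes were not tested, and the unknown depth of the libraries limits every count of calls.

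Genes gained ran from 1 to 31 and genes lost from 4 to 52 without 1 library; a shortened group had to show 2 of 2 or 0 of 2, so part of this follows from the rule. Strong peaks gave 9 gained, lists of equal length 13 gained and 18 lost (7 and 7 of which had a peak at the other stage in the full lists), 3 of 3 against at most 1 of 3 gave 4 and 8, and the removal of both long lists 6 and 11. The share of AC MG peaks overlapped at AC Br+6 was 23.3% with a reciprocal overlap of 50%, 12.5% for identical intervals and between 17.4% (without AC Br+6 replicate 3) and 40.8% (without AC MG replicate 1) without 1 library.

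Replicate numbers were not taken as pairs: deviations of same-numbered libraries from their stage means correlated at 0.13, -0.10 and 0.08. Replicate 3 of AC MG and replicate 3 of AC Br+6 still shared an excess of peaks longer than 500 bases (6.49% and 6.67% of their mRNA peaks). Whether same-numbered libraries were handled together was not tested. With the replicate block the mean of the paired differences equals the difference of the means, so every difference stayed as it was by construction. An exact sign-flip test over 3 pairs was run on -0.10 for the mRNA peak number (exact p = 1), -8.5 bases for the mRNA length (exact p = 0.5) and 0.44 for lncRNA peaks (exact p = 0.75), among others. Its smallest p is 0.25, so it could not have changed a call.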
